A study of Homo sapiens with 2 samples.

Results

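Selenoproteins carry selenocysteine, an amino acid that is inserted at an in-frame UGA codon which would otherwise end translation. Recoding needs a stem-loop in the 3′ untranslated region of the mRNA (the SECIS element), its binding protein SECISBP2, the elongation factor EEFSEC and a dedicated tRNA. Ribosomes on such mRNAs therefore meet a UGA at which they either insert selenocysteine or terminate. When selenium is scarce, some selenoproteins, GPX1 among them, are lost sooner than others, and GPX4 and TXNRD1 are known to be better preserved.

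The 7 selenoprotein genes described here were chosen by Ensembl gene ID from the 57820 IDs of a count table of ribosome-protected fragments. They are GPX1, GPX4, TXNRD1, SELENOF (older symbol SEP15), SELENOT (SELT), SELENOS (VIMP) and SEPHS2. The table covers 2 libraries of HEK293, a long-used line derived from human embryonic kidney. Both form a single group that was given DMSO vehicle for 12 h under basal conditions. Replicate 1 came from batch 1 and replicate 2 from batch 2, so batch and replicate cannot be told apart. Minocycline-treated cells and matched RNA-seq are not analysed here, so neither a response to treatment nor translational efficiency could be measured. The labels do not say whether the libraries came from separate cultures, so the spread between them may be technical.

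Replicate 1 held 865838 counts and replicate 2 held 611266, so that a single fragment was worth 1.16 CPM (counts per 1000000 library counts) in replicate 1, the deeper of the pair, and 1.64 CPM in replicate 2. Fragments of 27 to 29 nt were counted per gene, without their position. Counts thus pool codons before the UGA with those after it, and ribosomes that terminate at the UGA cannot be told from ribosomes that read through it. Coding lengths were not used here, so CPM values describe how many footprints each gene held and are not compared between genes as levels. Other selenoproteins, the recoding factors and markers of the cell line could not be assigned to IDs here and were not examined.

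All 7 genes had footprints in both libraries. Together they held 628 counts in replicate 1, or 0.0725% of the library (95% exact Clopper-Pearson interval 0.0670 to 0.0784), and 493 counts in replicate 2, or 0.0807% (0.0737 to 0.0881). These intervals overlap. They and all intervals below cover counting error only, and they treat PCR copies as if each were a separate molecule, since molecular identifiers are not described. The mean share was 0.0766% ± 0.00574 (SD, n = 2). Without SELENOF, the other 6 genes held 0.0341% of replicate 1 (0.0303 to 0.0382) and 0.0308% of replicate 2 (0.0265 to 0.0355), so the direction of the difference turned, and these intervals overlap too. All 14 values were whole numbers within 0.001, whereas over all IDs some 15.2% of nonzero values were not whole in replicate 1, and 13.9% in replicate 2.

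**Figure D1:**
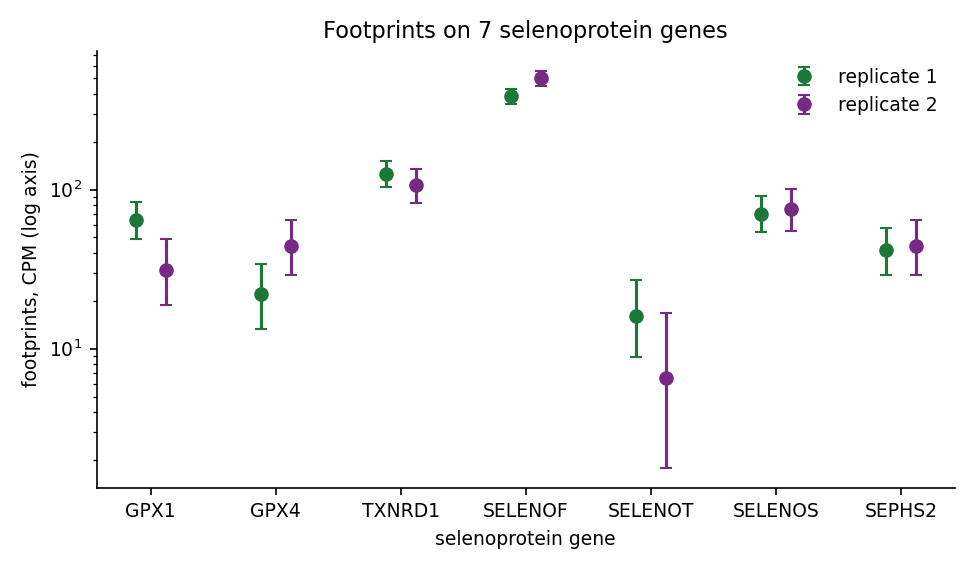
Footprints in CPM (log axis) on each of the 7 selenoprotein genes, with replicate 1 in green and replicate 2 in purple; points are single libraries and bars are exact 95% Poisson intervals. SELENOF lies at 384.6 and 499.0 CPM, SELENOT at 16.2 and 6.54 CPM, and GPX1 and GPX4 move in opposite directions between the libraries.

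The endoplasmic reticulum members held most of the footprints. SELENOF, SELENOT and SELENOS together had 408 of the 628 counts in replicate 1 (65.0%, interval 61.1 to 68.7) and 355 of the 493 in replicate 2 (72.0%, 67.8 to 75.9), with intervals that overlapped narrowly. The total rested mainly on SELENOF, a resident of the lumen that binds the glycoprotein-folding sensor UGGT. SELENOF (ENSG00000183291.11) had 333 counts in replicate 1 and 305 in replicate 2, which is 384.6 CPM (exact Poisson interval 344.4 to 428.2) and 499.0 CPM (444.5 to 558.2).

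The higher value of SELENOF was in the shallower library, and the intervals of the libraries did not overlap. It averaged 441.8 CPM ± 80.9 (SD, n = 2). Only 347 IDs had more counts than SELENOF in replicate 1 and 229 in replicate 2, a ranking by count and not per length. SELENOF alone made up 53.0% of the counts on the 7 genes in replicate 1 (49.0 to 57.0) and 61.9% in replicate 2 (57.4 to 66.2). These intervals did not overlap.

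SELENOS is a membrane protein of the endoplasmic reticulum that links the ATPase p97 to the removal of misfolded proteins. SELENOS (ENSG00000131871.10) had 61 counts in replicate 1 and 46 in replicate 2, or 70.5 CPM (53.9 to 90.5) and 75.3 CPM (55.1 to 100.4). Each value lay within the interval of the other library. Its share of the counts on the 7 genes was 9.71% in replicate 1 and 9.33% in replicate 2.

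SELENOT, a thioredoxin-like oxidoreductase of the same membrane, was the sparsest of the 7. SELENOT (ENSG00000198843.8) had 14 counts in replicate 1 and 4 in replicate 2, or 16.2 CPM (8.84 to 27.1) and 6.54 CPM (1.78 to 16.8). With 4 counts its upper bound in replicate 2 was above the value of replicate 1, so a difference was not detectable at this depth. The value in replicate 2 was close to the 4.91 CPM that a count of 0 would still allow there (3 counts of the library).

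TXNRD1, the cytosolic reductase that returns thioredoxin to its reduced form with NADPH, held the second highest count. TXNRD1 (ENSG00000198431.11) had 109 counts in replicate 1 and 65 in replicate 2, or 125.9 CPM (103.4 to 151.9) and 106.3 CPM (82.1 to 135.5). The intervals overlapped widely, and the mean was 116.1 CPM ± 13.8 (SD, n = 2).

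The 2 glutathione peroxidases moved in opposite directions between the libraries. GPX1, which reduces hydrogen peroxide in the cytosol, had 56 counts in replicate 1 and 19 in replicate 2 (ENSG00000233276.2), or 64.7 CPM (48.9 to 84.0) and 31.1 CPM (18.7 to 48.5). GPX4, which reduces lipid hydroperoxides in membranes and protects cells from ferroptosis, had 19 counts in replicate 1 and 27 in replicate 2 (ENSG00000167468.12), or 21.9 CPM (13.2 to 34.3) and 44.2 CPM (29.1 to 64.3). In CPM over the total of all IDs, the intervals of GPX1 just failed to overlap and those of GPX4 overlapped. Overlap is a coarse guide, since the interval of the direct ratio, given below, left out equality for both genes. GPX1 was the higher of the pair by count in replicate 1 and GPX4 in replicate 2. Summed, the pair held 11.9% of the counts on the 7 genes in replicate 1 (9.51 to 14.7) and 9.33% in replicate 2 (6.91 to 12.3), with intervals that overlapped.

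SEPHS2 makes selenophosphate, the selenium donor for selenocysteine synthesis, and is itself a selenoprotein. SEPHS2 (ENSG00000179918.15) had 36 counts in replicate 1 and 27 in replicate 2, or 41.6 CPM (29.1 to 57.6) and 44.2 CPM (29.1 to 64.3). It had the smallest SD in CPM of the 7, with a mean of 42.9 CPM ± 1.83 (SD, n = 2). An SD in CPM depends on the level and on the total used. By library size SEPHS2 had the log2 ratio between libraries nearest equality (-0.09). After the TMM scaling described below TXNRD1 had it (0.13, against -0.20 for SEPHS2).

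**Figure D2:**
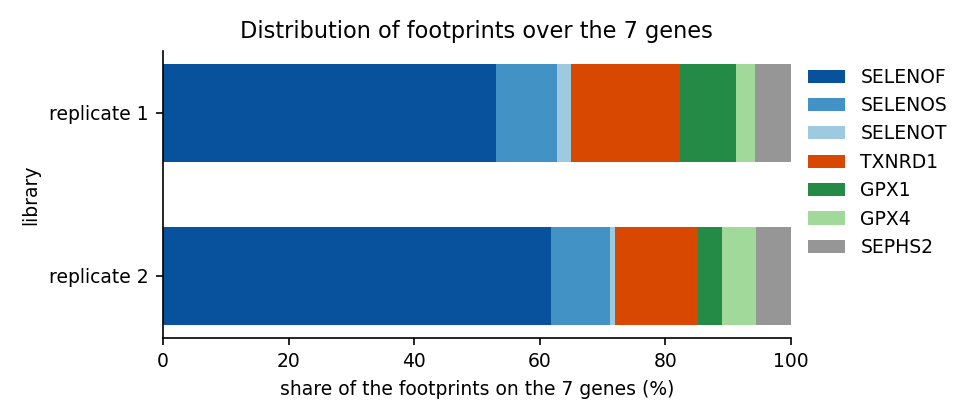
Share in percent of the footprints on the 7 selenoprotein genes that fell on each gene, with replicate 1 above (628 counts) and replicate 2 below (493 counts). SELENOF takes 53.0% and 61.9%, GPX1 takes 8.92% and 3.85%, and GPX4 takes 3.03% and 5.48%.

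The genes also differ in where the selenocysteine lies. In TXNRD1 and SELENOS it is the penultimate residue, so nearly all coding footprints fall before the UGA, whereas in GPX1, GPX4, SELENOT and SEPHS2 it lies nearer the N-terminus and most codons follow it. TXNRD1 and SELENOS held 170 of the 628 counts in replicate 1 (27.1%, interval 23.6 to 30.7) and 111 of the 493 in replicate 2 (22.5%, 18.9 to 26.5). The genes with the UGA nearer the start held 125 counts in replicate 1 (19.9%, 16.9 to 23.3) and 77 in replicate 2 (15.6%, 12.5 to 19.1). Both shares were lower in replicate 2, where SELENOF took more, and the intervals overlapped in both cases.

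The libraries were then compared gene by gene, as the ratio of replicate 1 over replicate 2 after TMM scaling, a scaling that sets the bulk of IDs equal between libraries. It moved log2 ratios by -0.11 against library size. Ratios past 1.5-fold were counted among IDs with at least 20 summed counts, which 6 of the 7 genes reached, SELENOT with 18 being the exception. Of these 6 genes, 2 lay past 1.5-fold, against 37.9% of the 6953 IDs tested, so the count is near the background. Only GPX4 lay past 2-fold, against 15.9% of IDs. GPX1 was the gene higher in replicate 1, where 18.1% of all IDs were, and GPX4 the gene lower in replicate 1, where 19.7% were. The median log2 ratio of the 6 genes was -0.20, and that of all IDs tested and above 0 in both libraries was 0.0052. The median absolute log2 ratios were 0.34 for the 6 genes, 0.48 for all 7 with SELENOT, and 0.44 for these IDs. Those IDs were not matched to the genes on summed count, so the medians do not rank the agreement of the genes against them.

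GPX1 had a log2 ratio of 0.95 (conditional exact binomial interval 0.17 to 1.78), a 1.93-fold higher value in replicate 1. Among the 1720 IDs with 50 to 99 summed counts, the range that holds GPX1, 37.0% lay past 1.5-fold and 14.4% lay at least as far from equality as GPX1. GPX4 had a log2 ratio of -1.12 (-2.05 to -0.22), or 0.461-fold, and of the 2994 IDs with 20 to 49 summed counts 51.5% lay past 1.5-fold and 21.5% at least as far as GPX4. Both intervals left out equality, but both ratios were within the spread that other IDs of like count showed between these libraries.

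SELENOF had a log2 ratio of -0.48 (-0.71 to -0.26), which is 0.715-fold and inside the 1.5-fold limit. Its interval also left out equality, which was the case for 3 of the 6 genes and for 26.4% of all IDs tested. Of the 1129 IDs with 200 or more summed counts, 15.8% lay past 1.5-fold and 23.1% at least as far from equality as SELENOF. The ratios of TXNRD1 (0.13, interval -0.32 to 0.60), SELENOS (-0.20, -0.78 to 0.38) and SEPHS2 (-0.20, -0.96 to 0.58) had intervals that held equality. Of the 1110 IDs with 100 to 199 summed counts, the range of TXNRD1 and SELENOS, 25.0% lay past 1.5-fold. In their own ranges, 80.3% of IDs lay at least as far from equality as TXNRD1, 69.2% as SELENOS and 78.7% as SEPHS2. SELENOT, under the count minimum, had a log2 ratio of 1.20 (-0.48 to 3.26), in a range of 10 to 19 summed counts where 67.5% of IDs lay past 1.5-fold.

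**Figure D3:**
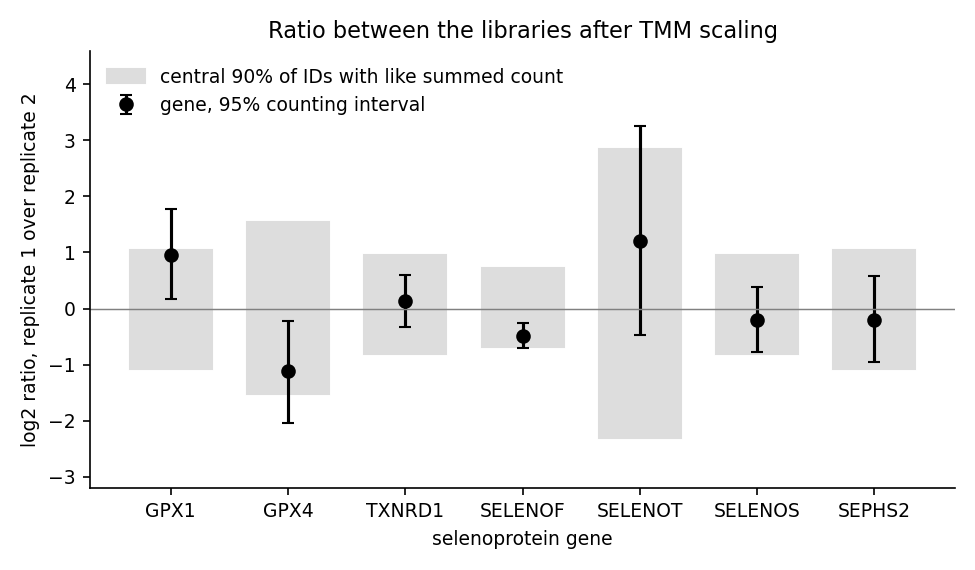
Log2 ratio of replicate 1 over replicate 2 after TMM scaling for each selenoprotein gene (black points with 95% counting intervals), over the central 90% of IDs in the same range of summed counts (grey boxes). All 7 points lie inside their boxes, with GPX1 at 0.95 and GPX4 at -1.12.

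Ratios between genes of the same library need no scaling, and all 21 pairs were compared in this way. The ratio of GPX1 to GPX4 counts was 2.95 in replicate 1 (interval 1.73 to 5.25) and 0.704 in replicate 2 (0.370 to 1.31), a 4.19-fold change between libraries (1.78 to 9.89). GPX1 and GPX4 were picked out from these pairs after their values were seen. The interval is not adjusted for the number of pairs, and pairs of other IDs were not compared in this way, so nothing particular to these genes is read from it. The order by count turned in 2 pairs, GPX1 with GPX4 and GPX1 with SEPHS2. In 7 of the 21 pairs, GPX1 with GPX4 among them, the interval of the change between libraries left out 1. GPX1 was in 4 of these pairs and GPX4 in 3, so the pairs share genes and are not independent. No share over pairs of other IDs stands beside this count, and it is not read as a result about these genes. The ratio of SELENOS to SEPHS2 counts was 1.69 in replicate 1 (1.10 to 2.63) and 1.70 in replicate 2 (1.04 to 2.85). That pair changed least of the 21 and was likewise picked after the values were seen.

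Copies elsewhere in the genome could share fragments with some of these genes. The RefSeq table of assembly GRCh38.p14 names pseudogenes after 3 of the 7: GPX1P1 and GPX1P2, SELENOTP1 and SELENOTP2, and SEPHS2P1. In the same table TXNRD1 overlaps TXNRD1-AS1, RPL18AP3 and EID3, and SELENOT overlaps SAP30P1, while the other 5 overlap no listed gene. The sources used here give no strand setting for the counting, so the counts of these genes may be uncertain, and the part of such copies in the values of GPX1, SELENOT, SEPHS2 and TXNRD1 was not tested.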

How the data were processed

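The deposited values are estimated counts of fragments of 27 to 29 nt per Ensembl gene ID, unscaled, per the labels. The submitters' processing notes name hg19 as the build. Per the labels' protocols, lysates were treated with RNase I and ribosomal RNA was not depleted. The sources used here name no aligner, counting tool, annotation or strand setting. Members and lists were chosen with earlier results of these data known, and all 7 members are named. Their symbols came with the selection and were found in the RefSeq table (7 of 7, 3 under a newer symbol), which pairs no Ensembl ID with a gene. Planned lists of other selenoproteins, recoding machinery, homologs, redox partners and cell line markers were therefore not applied.

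CPM used the sum of all IDs. TMM factors came from edgeR 4.0.16 and alternative size factors from DESeq2 1.42.0 (R 4.3.3) over rounded counts of IDs with at least 20 summed counts. Intervals are at 95% (scipy 1.17.1, Python 3.11.15). With 1 group no p-value was computed. Scaling and intervals were tested on simulated data. For scaling these held counting error only, so the test does not cover other spread between the libraries. Ranges of summed counts, pairs of genes and sums without SELENOF were added after the data were seen. The split by position of the selenocysteine was not planned either.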

Additional observations from a re-analysis of the deposited data

How the results depend on the processing

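GPX1 stayed past 1.5-fold towards replicate 1 and GPX4 towards replicate 2 under library-size scaling, DESeq2 scaling, 0.5 added to both counts, a minimum of 10 summed counts, no minimum beyond a count above 0 in both libraries, and without IDs of non-whole counts; under both looser minimums SELENOT joined them (3 of 7 genes), against 45.4% of 9254 IDs with the minimum of 10 and 48.2% of 12262 IDs above 0 in both libraries. SELENOF lay towards replicate 2 under TMM (log2 ratio -0.48), DESeq2 and library-size scaling (-0.38). With a 2-fold limit 1 of the 6 genes remained, GPX4, against 15.9% of IDs. With at least 100 summed counts 0 of 3 genes lay past 1.5-fold, because GPX1 and GPX4 have fewer counts, against 21.0% of IDs. The mean share of the 7 genes became 0.0965% over a total that omits the 2 highest IDs. That total was 713728 counts in replicate 1 and 469174 in replicate 2, against 865838 and 611266 with all IDs. Intervals in CPM for single genes, such as those of GPX1, were not computed over it. Over that total the share was 0.0880% in replicate 1 (0.0812 to 0.0951) and 0.105% in replicate 2 (0.0960 to 0.115). These 2 intervals did not overlap. Over the full total the share was 0.0725% and 0.0807% in single libraries. The share of SELENOF among the 7 genes was 53.0% and 61.9% in single libraries. Density per coding length, the order of genes by density and shares of density were planned and not run, since coding lengths were not used here. No paired analysis was possible because the design holds 1 group. Depth limits SELENOT most, with 4 counts in replicate 2.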
